A study of Mus musculus with 45 samples.

Results

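The comparison described here is that of diet in the islets of NZO/HlLtJ males, mice of an inbred strain prone to obesity and, in males, to diabetes. It used the 6 of the 45 sequenced samples whose titles carry the strain NZO/HlLtJ and the letter M: 3 from a diet with 44% fat and 3 from a control diet with 10% fat, both labelled as containing fiber, and the richer diet also described as high in sugar. The diets began at 6 weeks of age and tissue was taken at 15 weeks. All samples are labelled wild type. The other 39 samples are NZO/HlLtJ females (8), C57BL/6J and CAST/EiJ mice of both sexes on the same diets. They served here to estimate spread and as comparisons. The 8 NZO/HlLtJ females also entered the estimated male diet difference, with weights given below. Replicates are called high-fat male 1, 2 and 3 and control male 1, 2 and 3, in accession order, and values of a diet's 3 males are given in that order. The labels do not say that each sample came from a separate animal, so p-values here reflect the spread between samples alone, which may be technical.

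Islets hold the hormone cells of the pancreas, mostly insulin-secreting beta cells. A beta cell takes up glucose through the transporter encoded by Slc2a2, metabolises it, closes its ATP-sensitive potassium channels as metabolism rises, and releases insulin granules when calcium enters. Mature beta cells also keep a set of common metabolic genes, called disallowed genes, very low, and in diabetic mice they are known to lose parts of this program. Islets isolated from the pancreas carry enzyme-making acinar cells, duct, vessel, nerve, stromal and immune cells along with them, and in such bulk samples fewer cells of a type cannot be told apart from less RNA per cell.

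The male libraries held 77972575 to 90624632 counts (57203768 to 109950216 over all 45). Sample identifiers fall into 3 runs of consecutive numbers, called number ranges here, and the diets are spread unevenly over them. High-fat male 1 and control male 1 stand together in the first range, high-fat males 2 and 3 in the second, and control males 2 and 3 in the third. The range was a term of the fit over the 14 NZO/HlLtJ samples. High-fat male 1 and control male 1 therefore each carry a weight of 0.6 in size in the estimated diet difference. Each other library, the females included, carries 0.2. Fold changes given below come from this fit and can differ from the ratio of the male CPM values printed beside them. A further library stood apart: the X-inactivation transcript Xist had 15.3 CPM (counts per 1e+06 counts, after TMM scaling of the libraries) in high-fat male 3 and at most 0.929 CPM in the other 5 males. The source of these Xist counts was not tested. The Y-linked helicase gene Ddx3y had 44.4 to 65.8 CPM in all 6 males. Insulin transcripts were abundant in every library, with Ins2 at 2.67% to 8.85% of counts.

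The share of acinar transcripts was higher in every high-fat male than in any control male. The acinar list (34 genes: digestive enzymes and the factors that drive them) held 10.5%, 16.2% and 21.0% of counts in high-fat males 1, 2 and 3 and 5.94%, 5.45% and 6.97% in control males 1, 2 and 3. The means were 15.9% ± 5.26 and 6.12% ± 0.776 (SD, n = 3 each), a difference of 9.78 percentage points (exact permutation test, two-sided p = 0.1, the smallest this design allows). Control males of C57BL/6J averaged 6.44% ± 3.53 (n = 4), and single libraries of that strain and CAST/EiJ ran from 0.0825% to 48.3%, so the share also varied widely within groups. The insulin share was lower in the same libraries. Ins1 took 2.98%, 2.98% and 1.25% of counts on 44% fat and 4.27%, 5.21% and 5.39% on 10% fat, and Ins2 5.28%, 5.21% and 2.67% against 7.5%, 8.1% and 8.85%, with exact p = 0.1 for each. The groups did not overlap for either gene, and high-fat male 3 had both the highest acinar and the lowest insulin share. As a percent of the counts outside the acinar list, Ins2 stood at 5.89, 6.22 and 3.37 on 44% fat and 7.97, 8.57 and 9.52 on 10% fat. In this share, too, the 2 diets did not overlap. It sets aside the counts of the 34 listed genes alone, and the part of acinar cells in the insulin difference was not tested.

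**Figure D1:**
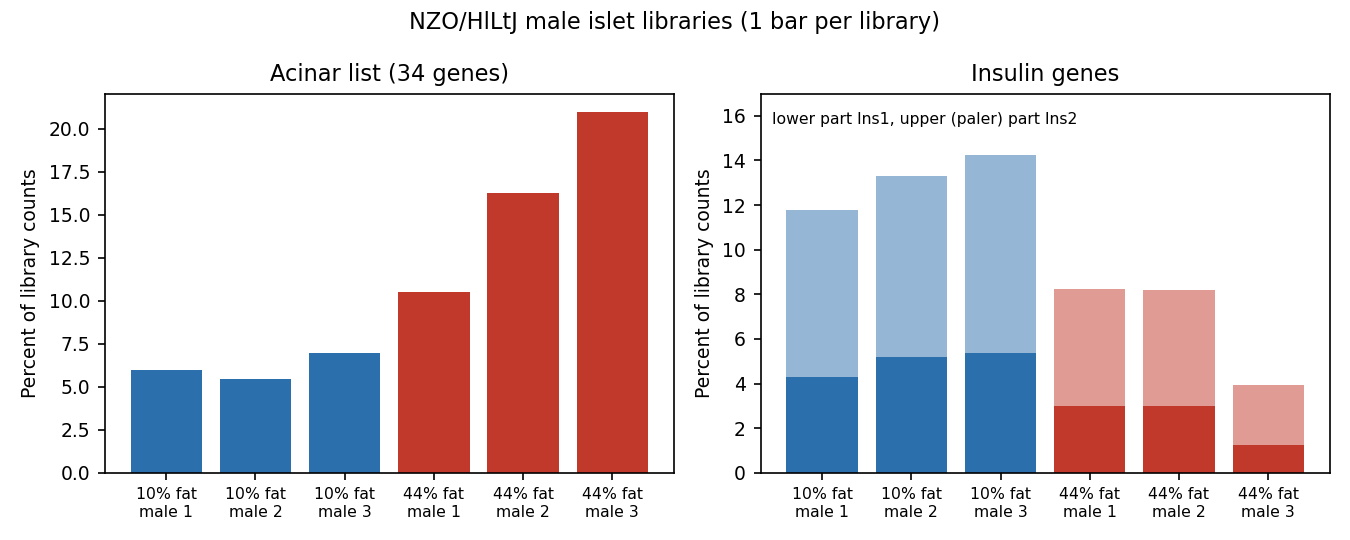
Percent of each library's counts in the acinar list (34 genes, left) and in Ins1 and Ins2 (right), 1 bar per NZO/HlLtJ male library, blue for 10% fat and red for 44% fat. The 3 high-fat males lie at 10.5% to 21.0% acinar counts, above the 3 control males at 5.45% to 6.97%, and below them in insulin.

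Across all genes the diets differed in many transcripts. Of 18517 genes tested, 2520 (13.6%) passed the edgeR quasi-likelihood test at a Benjamini-Hochberg adjusted p of 0.05: 1620 (8.75%) were higher and 900 (4.86%) lower on 44% fat. The higher genes changed more: 1388 of them rose at least 2-fold, while 377 of the lower genes fell at least 2-fold. The median log2 fold change over all tested genes was -0.03. CPM ranges of the 3 high-fat and 3 control males did not overlap in 1525 of the higher and 757 of the lower genes. Over all tested genes this was so for 3906 (21.1%) upward and 3351 (18.1%) downward.

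These counts rest on few libraries. All 2520 genes had the same sign within the pair of high-fat male 1 and control male 1, and 2508 (99.5%) had it among the other 4 males. The 2520 genes were called from these same libraries. Neither these signs nor the kept signs and shared calls below are therefore separate support. Without control male 1 the edgeR test called 0 genes (2982 at an unadjusted p under 0.05, where the full fit had 5745). In that fit 100% of the 2520 genes kept their sign. The other single libraries, left out in turn, gave 1366 (without control male 2) to 3837 (without control male 3). Adding the acinar score of each library, the mean log2 CPM of the acinar list, as a covariate within the strain also gave 0 calls (2597 unadjusted), again with 100% of the signs unchanged. The score was 9.80, 10.5 and 10.8 in high-fat males 1, 2 and 3 and 8.76, 8.64 and 9.19 in control males 1, 2 and 3. Because it does not overlap between the diets, score and diet cannot be told apart in these males. The 6 males alone, with no number range term, gave 2499 calls (1901 higher and 598 lower) of 17790 genes tested. Of these, 1580 were called in the same direction in the main fit. There 10 stellate and fibroblast and 3 Schwann cell markers rose, against 18 and 9 in the main fit. Interferon genes rose in 27 cases and T and NK markers in 18, against 6 and 1, and macrophage markers in 24 in both fits. Fitting all 45 samples gave 6866 calls, of which 47.4% were higher against 64.3% of the 2520, and 6130 with the acinar score added. Of the 2520 genes, 2321 were called in the same direction over 45 samples and 2246 with the score added there. Without high-fat male 3, the library with Xist, 2076 genes were called (7.28% higher and 3.74% lower). Then 14 of 22 glucose sensing genes and 7 of 18 beta cell transcription factors fell, and 16 of 19 disallowed genes, 22 of 25 macrophage and 18 of 20 stromal markers rose. Each gene list below had 0 called members without control male 1 and 0 with the acinar score within the strain. Over all tested genes, 16% were higher and 17.8% lower in the 45-sample fit, 14.5% and 15.7% with the score added there, and 14.6% and 11.1% without the number range term, against which list counts under those fits stand. Ranges of list counts given below are over the 13 libraries other than control male 1, each left out in turn.

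**Figure D2:**
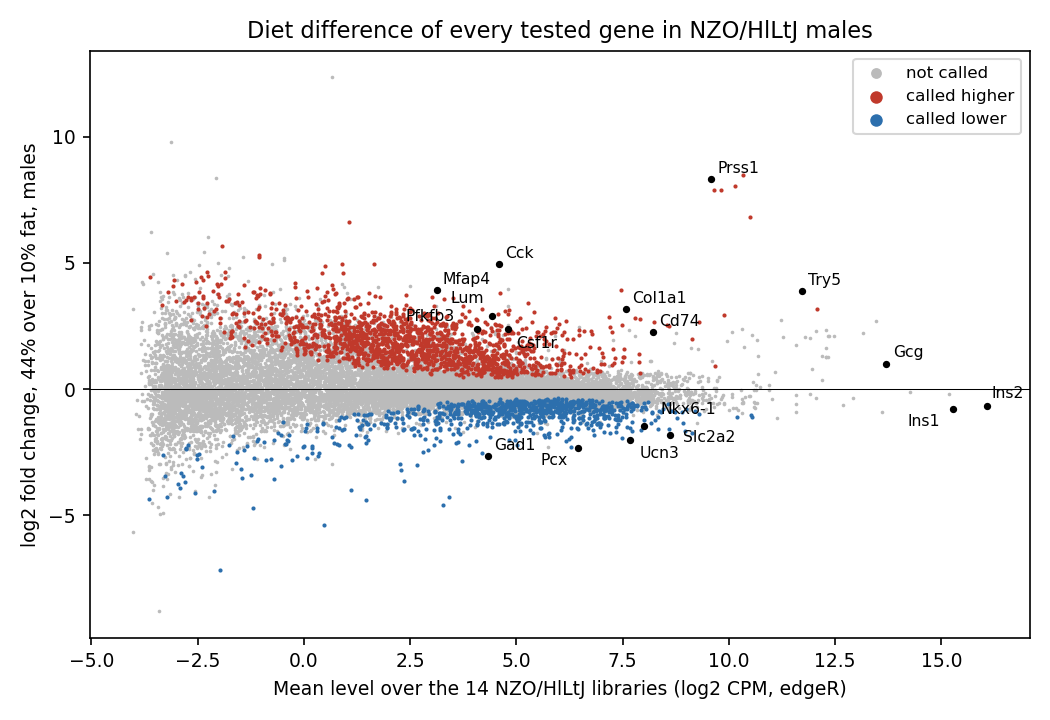
Log2 fold change of 44% over 10% fat in males (vertical) against mean log2 CPM over the 14 NZO/HlLtJ libraries (horizontal), 1 point per tested gene, with red and blue for the 1620 higher and 900 lower genes. Slc2a2, Ucn3 and Pcx lie below 0 and Cck, Lum and Csf1r above it, while Ins1, Ins2 and Gcg did not pass the test.

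**Figure D3:**
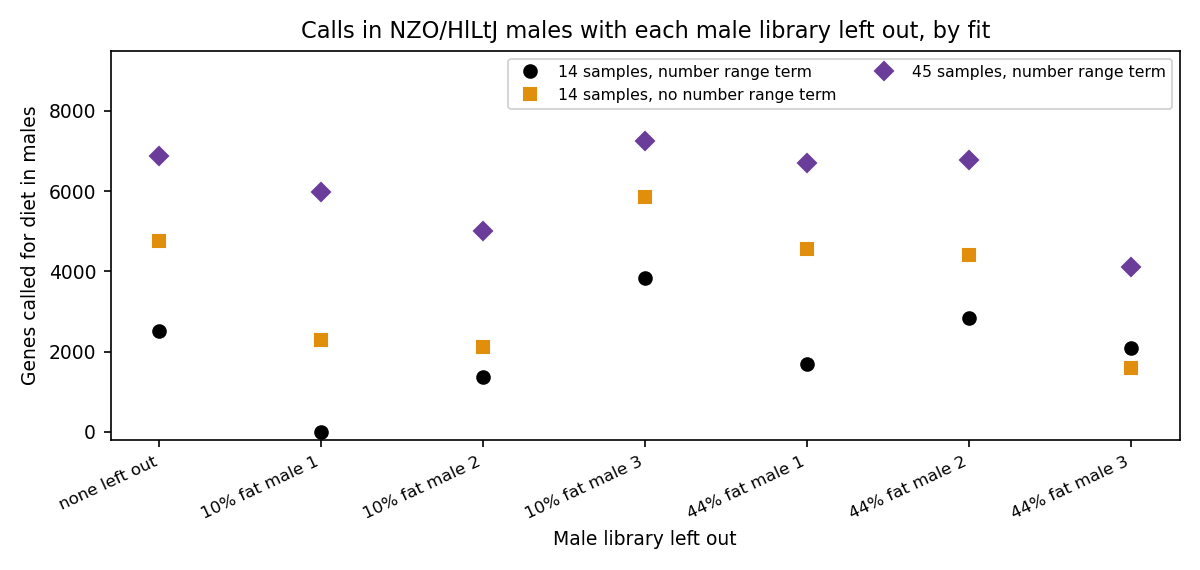
Number of genes called for diet in males (vertical) with each male library left out (horizontal), for 3 fits: the 14 NZO/HlLtJ samples with the number range term (black), the same without it (orange) and all 45 samples (purple). Without 10% fat male 1 the black point falls from 2520 to 0, the orange from 4759 to 2282 and the purple from 6866 to 5984.

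Genes of glucose sensing and of the coupling of glucose to secretion were lower in the high-fat males. Of 22 such genes 11 fell and 0 rose, with a median log2 fold change of -0.92, and the CPM ranges of 16 of them did not overlap between the diets. Slc2a2 (chr3:28697903-28731359 in GRCm38), the glucose transporter GLUT2, had 139, 195 and 97.3 CPM on 44% fat and 582, 523 and 269 CPM on 10% fat. Every high-fat male lay below every control male, a 3.57-fold difference in the fit (log2 fold change -1.83 ± 0.45, edgeR adjusted p = 0.0223; ± is the standard error throughout). A receptor and a channel that amplify secretion also fell. Gipr, through which the gut hormone GIP acts, had 13.1, 10.6 and 6.87 CPM on 44% fat and 56.7, 45.5 and 22.8 CPM on 10% fat (log2 fold change -2.02 ± 0.38, edgeR adjusted p = 0.00967), and Trpm5, a cation channel that opens with calcium, had 13.3, 16.6 and 7.61 CPM on 44% fat and 60.6, 51.8 and 27.5 CPM on 10% fat (log2 fold change -1.91 ± 0.39, edgeR adjusted p = 0.0127). In both genes control male 3 was the lowest control and high-fat male 3 the lowest library of all. Ucn3, urocortin 3, a peptide of mature beta cells, had 85.2, 78.5 and 26.7 CPM on 44% fat and 285, 305 and 161 CPM on 10% fat. It was 4.02-fold lower in the fit (-2.01 ± 0.47, adjusted p = 0.0187 by edgeR). Sytl4, which tethers insulin granules at the membrane, had 139.8, 169 and 78.6 CPM on 44% fat and 444, 345 and 282 CPM on 10% fat (log2 fold change -1.58 ± 0.31, edgeR adjusted p = 0.0109). G6pc2, a glucose-6-phosphatase of beta cells, had 1420.4, 1501 and 706 CPM on 44% fat and 2681, 2141 and 2980.3 CPM on 10% fat and missed the threshold (log2 fold change -1.15 ± 0.36, edgeR adjusted p = 0.0556). With each of the 13 other libraries left out in turn, 7 to 14 members fell, and with all 45 samples 19 did. With the acinar score within the strain the median was -0.70, and in the 45-sample fit with that score 17 members fell.

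The transcription factors that define beta cells moved in the same direction. Of 18 factors 8 fell and 0 rose (median -0.81). Nkx6-1 (chr5:101658139-101664996), which keeps beta cells in their identity, had 135, 128 and 58.01 CPM on 44% fat and 348, 314 and 199 CPM on 10% fat. It was 2.79-fold lower in the fit (log2 fold change -1.48 ± 0.33, edgeR adjusted p = 0.0157). The control males spanned a wide range, but all stood above the high-fat males. Pax6, a factor of all islet hormone cells, had 82.5, 73.6 and 48.9 CPM on 44% fat and 166, 136 and 116 CPM on 10% fat (log2 fold change -0.99 ± 0.23, edgeR adjusted p = 0.0194), St18 had 77.4, 86.04 and 46.2 CPM on 44% fat and 156, 138 and 103 CPM on 10% fat (log2 fold change -1.05 ± 0.25, edgeR adjusted p = 0.0193), and Tshz1 had 63.9, 63.2 and 46.98 CPM on 44% fat and 143, 132 and 66.2 CPM on 10% fat (log2 fold change -1.17 ± 0.28, edgeR adjusted p = 0.0202). The groups of Tshz1 did not overlap, though control male 3 lay close to high-fat male 1. Pdx1 and Mafa, the best known activators of the insulin genes, did not pass the test. Pdx1 had 116, 110.01 and 47.7 CPM on 44% fat and 163, 203 and 180.2 CPM on 10% fat (log2 fold change -0.83 ± 0.34, edgeR adjusted p = 0.115) and Mafa 65.4, 39.01 and 19.1 CPM on 44% fat and 91.99, 134 and 56.7 CPM on 10% fat (log2 fold change -1.33 ± 0.53, edgeR adjusted p = 0.114), with the lowest level of each in high-fat male 3 and overlapping groups for Mafa. With each of the 13 other libraries dropped, 5 to 11 factors fell, and over 45 samples 16 did, with or without the acinar score (16). Within the strain the median was -0.74 with the score.

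Of the hormones and the granule machinery fewer genes passed. Among 24 genes of prohormone processing and granules 3 fell and 0 rose (median -0.52), among them Rims2 and Unc13a, which prepare granules for release. Rims2 had 20.4, 20.2 and 15.9 CPM on 44% fat and 36.2, 31.6 and 25.3 CPM on 10% fat (log2 fold change -0.83 ± 0.16, edgeR adjusted p = 0.0116) and Unc13a 86.8, 92.6 and 60.8 CPM on 44% fat and 157, 119.6 and 85.9 CPM on 10% fat (log2 fold change -0.93 ± 0.27, edgeR adjusted p = 0.0401). Both fell by less than 2-fold and stood lowest in high-fat male 3, and for Unc13a high-fat males 1 and 2 lay above control male 3. The insulin genes, which differed between the groups without overlap, had log2 fold changes of -0.79 ± 0.52 for Ins1 and -0.69 ± 0.53 for Ins2, with edgeR adjusted p of 0.324 and 0.4. The hormone amylin, Iapp, is secreted with insulin and had 20643, 19377 and 12078 CPM on 44% fat and 18180.3, 20928 and 29901 CPM on 10% fat, with overlapping groups (log2 fold change -0.11 ± 0.43, edgeR adjusted p = 0.893). Depending on which of the 13 other libraries was left out 1 to 6 granule genes fell, and 18 fell over 45 samples.

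Most markers of the other islet hormone cells did not pass. Of 15 genes 1 rose and 1 fell (median 0.60), where 8.75% of all tested genes were higher and 4.86% lower. Gcg, the glucagon gene of alpha cells, had 14875, 9543 and 16334 CPM on 44% fat and 6243, 7032 and 11116 CPM on 10% fat, with overlapping groups (log2 fold change 1.01 ± 0.44, edgeR adjusted p = 0.142). The ratio of Ins2 to Gcg counts was 3.48, 6.11 and 1.74 in the high-fat males and 11.9, 11.4 and 8.63 in the control males, so each high-fat library held less insulin transcript per glucagon transcript. Sst, the somatostatin gene of delta cells, had 1336, 1111 and 1408 CPM on 44% fat and 1452, 1036 and 1361 CPM on 10% fat (log2 fold change -0.03 ± 0.27, edgeR adjusted p = 0.947), and Ppy, pancreatic polypeptide, had 1111, 2469 and 2379.6 CPM on 44% fat and 1359, 2020.2 and 1463 CPM on 10% fat (log2 fold change 0.6 ± 0.46, edgeR adjusted p = 0.405). The member that rose was Hhex, a delta cell factor that duct cells also express, with 17.3, 15.98 and 26.1 CPM on 44% fat and 6.69, 9.498 and 9.696 CPM on 10% fat (log2 fold change 1.49 ± 0.29, edgeR adjusted p = 0.0113). The member that fell was Peg3, an imprinted gene, with 878, 936 and 674 CPM on 44% fat and 2089, 1589 and 794 CPM on 10% fat (log2 fold change -1.1 ± 0.33, edgeR adjusted p = 0.0479), and its high-fat males 1 and 2 lay above control male 3. With 1 of the 13 other libraries left out 1 to 5 members rose and 0 to 1 fell.

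Disallowed genes rose almost as a group. Of the 19 measured, 18 rose and 0 fell, with a median of 1.78, and the ranges of all 19 lay apart between the diets. Their summed level ran from 758 to 1309 CPM on 44% fat and 250.5 to 487 CPM on 10% fat. Cat, catalase, which breaks down hydrogen peroxide, had 47.8, 49.6 and 71.3 CPM on 44% fat and 14.96, 22.2 and 21.9 CPM on 10% fat. It was 3.83-fold higher in the fit (log2 fold change 1.94 ± 0.34, edgeR adjusted p = 0.00937). Ldha, the lactate dehydrogenase that beta cells keep low so that pyruvate enters mitochondria, had 38.4, 41.7 and 89.1 CPM on 44% fat and 16.03, 18.7 and 23.96 CPM on 10% fat (log2 fold change 1.73 ± 0.41, edgeR adjusted p = 0.0193), and Hk1, a hexokinase with high affinity for glucose, had 27.5, 25.2 and 41.1 CPM on 44% fat and 11.4, 14.9 and 20.5 CPM on 10% fat (log2 fold change 1.26 ± 0.29, edgeR adjusted p = 0.0189). High-fat male 3 was the highest for all 3 enzymes. Ndrg2 had 25.2, 30.02 and 35.2 CPM on 44% fat and 11.2, 15.3 and 20.6 CPM on 10% fat (log2 fold change 1.26 ± 0.20, edgeR adjusted p = 0.00863), Zfp36l1, an RNA-binding decay factor, 78.9, 55.1 and 96.9 CPM on 44% fat and 26.6, 33.3 and 50.9 CPM on 10% fat (log2 fold change 1.69 ± 0.31, edgeR adjusted p = 0.00956), and Cxcl12, a chemokine of stromal cells, 34.7, 42.8 and 60.4 CPM on 44% fat and 8.36, 19.7 and 23.7 CPM on 10% fat (log2 fold change 2.15 ± 0.38, edgeR adjusted p = 0.00937). Many of these genes are expressed in stromal, duct, vessel and immune cells, whose markers were higher in the same libraries; the part of those cells in the rise was not tested. The count held at 16 to 18 over the 13 other libraries left out, and the median was 1.15 with the acinar score.

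Some genes listed as markers of lost beta cell maturity or of progenitors rose. Of 16 dedifferentiation and progenitor markers 7 rose and 0 fell (median 0.57). Cck (chr9:121489825-121495689), the gut hormone cholecystokinin, had 94.6, 78.7 and 93.4 CPM on 44% fat and 0.459, 2.28 and 21.6 CPM on 10% fat (log2 fold change 4.94 ± 1.44, edgeR adjusted p = 0.0412). The high-fat males were alike, while the control males spanned more than an order of magnitude. Gast, gastrin, a related hormone of fetal islets, had 8.83, 4.96 and 3.62 CPM on 44% fat and 0.568, 0.553 and 2.41 CPM on 10% fat (log2 fold change 3.41 ± 0.95, edgeR adjusted p = 0.0354). Sox9, a factor of progenitors and duct cells, had 26.3, 23.3 and 36.4 CPM on 44% fat and 4.85, 8.81 and 13.6 CPM on 10% fat (log2 fold change 2.49 ± 0.58, edgeR adjusted p = 0.0188), and Vim, vimentin, a filament gene of mesenchymal cells, 127, 141 and 221 CPM on 44% fat and 32.2, 50.3 and 94.5 CPM on 10% fat (log2 fold change 1.99 ± 0.36, edgeR adjusted p = 0.00956). Cd81 and Cd24a rose by smaller amounts, 0.75 ± 0.20 and 0.71 ± 0.16 on the log2 scale (edgeR adjusted p = 0.0278 and 0.0179). Aldh1a3, a marker tied to failing beta cells, had 157, 144 and 76.1 CPM on 44% fat and 122, 182 and 153 CPM on 10% fat, with overlapping groups (log2 fold change 0.17 ± 0.46, edgeR adjusted p = 0.833). In the females of the strain its log2 fold change was 1.39 ± 0.37. Neurog3, Fev, Myc and Npnt did not pass, at 0.13 ± 0.43, 0.23 ± 0.23, -0.43 ± 0.52 and -0.74 ± 0.28 (edgeR adjusted p = 0.861, 0.537, 0.611 and 0.0965). Duct and stromal markers were higher in the same libraries, and the part of those cells in the rise of genes such as Sox9 and Vim was not tested. Across the 13 other left-out libraries 3 to 8 markers rose.

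**Figure D4:**
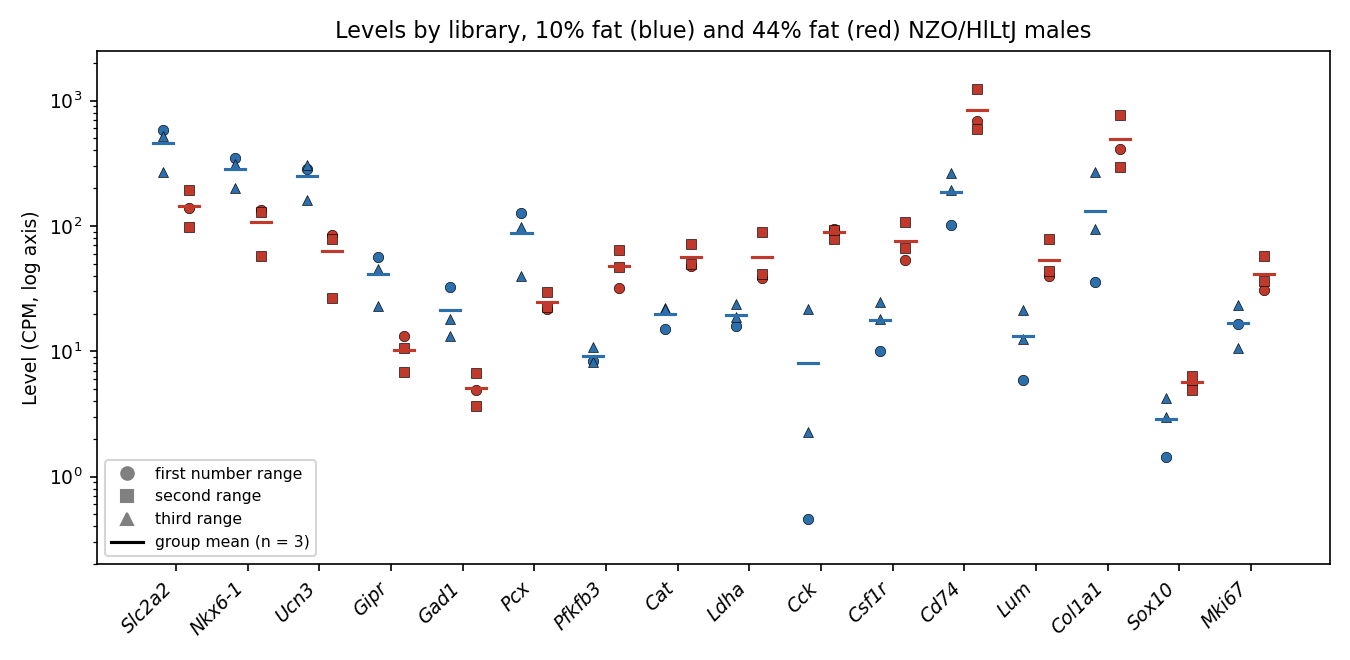
CPM on a log axis (vertical) of 16 genes (horizontal) in each NZO/HlLtJ male library, blue for 10% fat and red for 44% fat, with the mark showing the number range and the line the mean of 3 libraries. The red and blue marks of Slc2a2, Pcx, Pfkfb3, Cat and Csf1r do not overlap, and the 3 control values of Cck spread from 0.459 to 21.6 CPM.

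Enzymes of glucose use changed one by one. Among 16 genes that glucose induces in beta cells, 5 rose and 1 fell (median 1.17). Pfkfb3, which raises the main activator of glycolysis, had 32.1, 46.7 and 63.7 CPM on 44% fat and 8.405, 8.16 and 10.9 CPM on 10% fat. It was 5.16-fold higher in the fit (log2 fold change 2.37 ± 0.29, edgeR adjusted p = 0.00829). Its sister enzyme Pfkfb2, the form of normal islets, fell, with 38.6, 37.1 and 30.6 CPM on 44% fat and 111, 98.8 and 54.4 CPM on 10% fat (log2 fold change -1.54 ± 0.26, edgeR adjusted p = 0.00863). The groups of both genes did not overlap. Txnip, a glucose-responsive inhibitor of thioredoxin, had 1191, 1464 and 1189 CPM on 44% fat and 466, 429 and 874 CPM on 10% fat and missed the threshold (log2 fold change 1.58 ± 0.54, edgeR adjusted p = 0.0707), though the groups did not overlap. In glycolysis proper 4 of 18 genes rose and 1 fell (median 0.21). Slc16a3, a lactate exporter, was higher (1.54 ± 0.39, adjusted p = 0.0266 by edgeR), and Eno2, the enolase of nerve and hormone cells, was lower (-0.78 ± 0.17, adjusted p = 0.0146). Dropping each of the 13 other libraries, 3 to 8 glucose-induced and 2 to 5 glycolysis genes rose.

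The enzyme that feeds pyruvate into the citrate cycle was among the genes that fell most. Pcx (chr19:4510472-4621752), pyruvate carboxylase, had 21.9, 29.7 and 22.5 CPM on 44% fat and 127, 98.3 and 39.5 CPM on 10% fat. It was 5.11-fold lower in the fit (log2 fold change -2.35 ± 0.39, edgeR adjusted p = 0.00866). The high-fat males were close to each other, and control male 3 had the lowest level of the controls. The rest of the 25 genes of the citrate cycle and mitochondrial shuttles mostly did not pass: with Pcx 2 fell, 0 rose and the median was -0.19. The other gene that fell was Idh2, a mitochondrial isocitrate dehydrogenase (log2 fold change -0.53 ± 0.16, edgeR adjusted p = 0.0477), with high-fat male 3 above control male 3. Sdha, also an enzyme of the cycle, had a log2 fold change of -0.48 ± 0.15 (edgeR adjusted p = 0.0538). Over 45 samples 12 members fell, against 17.8% of all genes, and with 1 of the 13 other libraries left out 1 to 6 fell.

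Most genes of fat handling did not pass the test, and a few rose. Of 21 genes of fatty acid oxidation and targets of the fat-sensing receptor PPAR, 5 rose and 0 fell (median 0.33, and -0.03 with the acinar score). Acot1, a thioesterase, had 4.38, 7.82 and 12.2 CPM on 44% fat and 0.503, 0.852 and 2.07 CPM on 10% fat (log2 fold change 3.02 ± 0.67, edgeR adjusted p = 0.0163), and Cd36, a fatty acid transporter of macrophages, vessels and fat cells, 16.8, 27.4 and 51.04 CPM on 44% fat and 3.87, 7.03 and 10.2 CPM on 10% fat (log2 fold change 2.48 ± 0.65, edgeR adjusted p = 0.0288). Acadl, an oxidation enzyme, and Ucp2, a mitochondrial carrier, rose by 0.97 ± 0.29 and 0.64 ± 0.19 (edgeR adjusted p = 0.0429 and 0.0429). Fatty acid and triglyceride synthesis had 4 of 22 genes higher and 1 lower. Fads2, a desaturase, had 50.8, 41.9 and 53.7 CPM on 44% fat and 23.3, 24.7 and 29.01 CPM on 10% fat (log2 fold change 1.22 ± 0.17, edgeR adjusted p = 0.00863), and Scd1, a further desaturase, 20.9, 35 and 41.5 CPM on 44% fat and 13.7, 10.97 and 14.8 CPM on 10% fat (log2 fold change 1.47 ± 0.39, edgeR adjusted p = 0.0293). The lipid droplet coats Plin2 and Plin3 rose by 1.11 ± 0.30 and 1.02 ± 0.22 (edgeR adjusted p = 0.032 and 0.015). In cholesterol synthesis 0 of 23 genes passed in either direction (median 0.02), and 5 fell over 45 samples, where 17.8% of all genes were lower. With 1 of the 13 other libraries left out 1 to 6 oxidation genes and 2 to 5 synthesis genes rose.

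Macrophage transcripts rose together. Of 25 macrophage markers 24 rose and 0 fell, with a median of 2.37, and all 25 had ranges that did not overlap. Their summed level was 921 to 1624 CPM on 44% fat and 165 to 479.6 CPM on 10% fat. Csf1r, the growth factor receptor that macrophages depend on, had 53.9, 66.7 and 108 CPM on 44% fat and 10.1, 18.1 and 24.6 CPM on 10% fat. It was 5.16-fold higher in the fit (log2 fold change 2.37 ± 0.44, edgeR adjusted p = 0.00967). High-fat male 3 was highest and control male 1 lowest, as for Mrc1. Mrc1, a mannose receptor of tissue-resident macrophages, had 20.3, 28.7 and 61.1 CPM on 44% fat and 1.24, 5.77 and 10.4 CPM on 10% fat (log2 fold change 3.63 ± 0.89, edgeR adjusted p = 0.0223), and Siglec1, a sialic acid receptor of macrophages that interferon raises, 13.6, 26.3 and 43.2 CPM on 44% fat and 0.787, 3.49 and 6.68 CPM on 10% fat (log2 fold change 3.65 ± 0.80, edgeR adjusted p = 0.0155). Trem2 and Gpnmb, genes of lipid-laden macrophages, both rose. Trem2 had 4.097, 3.798 and 4.55 CPM on 44% fat and 0.612, 0.886 and 2.18 CPM on 10% fat (log2 fold change 2.38 ± 0.46, edgeR adjusted p = 0.0106), and Gpnmb had 4.15, 5.64 and 6.72 CPM on 44% fat and 0.383, 1.13 and 2.14 CPM on 10% fat (log2 fold change 3.29 ± 0.47, edgeR adjusted p = 0.00863). Over the 13 other libraries left out 17 to 24 markers rose, and with the acinar score within the strain the median was 1.88. In the 45-sample fit 25 rose, also with the score (25).

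Transcripts of lymphocytes and granulocytes were low and mostly missed the threshold. Of 20 T and NK cell markers 1 rose, with a median of 1.81, where 8.75% of all tested genes were higher. The ranges of 19 did not overlap, all higher on 44% fat, against 21.1% of all tested genes. Cd3e, part of the T cell receptor complex, had 1.08, 2.12 and 3.47 CPM on 44% fat and 0.0874, 0.399 and 0.469 CPM on 10% fat (log2 fold change 1.85 ± 1.42, edgeR adjusted p = 0.402), and Cd4 had 4.16, 6.66 and 13.4 CPM on 44% fat and 0.295, 1.43 and 1.85 CPM on 10% fat (log2 fold change 2.72 ± 1.08, edgeR adjusted p = 0.111). Of 15 B and plasma cell markers 2 rose (median 2.41): Ighm, the heavy chain of IgM, with 37.96, 97.96 and 143 CPM on 44% fat and 3.29, 7.14 and 9.38 CPM on 10% fat (log2 fold change 3.8 ± 0.90, edgeR adjusted p = 0.02), and Sdc1, a marker of plasma cells that epithelia share, with 19.7, 25.05 and 38.4 CPM on 44% fat and 6.24, 9.43 and 14.7 CPM on 10% fat (log2 fold change 1.9 ± 0.30, edgeR adjusted p = 0.00863). Of 13 markers of dendritic cells, mast cells and granulocytes, 2 rose, the dendritic lectin Cd209a and the mast cell protease Cpa3 (3.33 ± 0.97, adjusted p = 0.041 and 4.14 ± 1.05, adjusted p = 0.0259, edgeR). The called T and NK marker was Thy1, which also stands on the stellate and fibroblast list (log2 fold change 2.66 ± 0.49, edgeR adjusted p = 0.00956). With 1 of the 13 other libraries left out 1 to 9 T and NK, 2 to 7 B and plasma and 0 to 6 dendritic, mast and granulocyte markers rose. Without control male 1 the medians of the 3 lists were 0.50, 1.49 and 0.87. The counts also depended on the number range term: without it 14 T and NK and 13 B and plasma cell markers rose.

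The antigen presentation genes that passed belong to the class II pathway. Of 17 antigen presentation genes 5 rose and 0 fell (median 1.13), and all 17 had ranges that did not overlap. The called members were H2-Aa, H2-Ab1, H2-Eb1, H2-DMa and Cd74, all of class II. Cd74, the invariant chain of class II molecules, had 693, 589 and 1232 CPM on 44% fat and 101, 194 and 265 CPM on 10% fat (log2 fold change 2.24 ± 0.62, edgeR adjusted p = 0.0354), and H2-Aa 243, 240.2 and 457 CPM on 44% fat and 35.9, 73.4 and 94.9 CPM on 10% fat (log2 fold change 2.31 ± 0.65, edgeR adjusted p = 0.0364). Without high-fat male 3 the count was 1, and over the 13 other libraries it ran from 0 to 16. Without the number range term it was 14 and over 45 samples 16, also with the acinar score (16).

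Interferon response genes, which cells switch on through the transcription factor ISGF3 and its relatives after a viral or self nucleic acid alarm, stood higher in the high-fat males. Of 30 genes 6 rose and 0 fell (median 1.54), and the ranges of 27 did not overlap. Isg15, a ubiquitin-like modifier, had 10.5, 11.3 and 10.5 CPM on 44% fat and 2.37, 2.22 and 3.88 CPM on 10% fat (log2 fold change 1.9 ± 0.54, edgeR adjusted p = 0.0376), and Ifit2, which blocks translation of foreign RNA, 25.3, 28.9 and 24.1 CPM on 44% fat and 5.04, 7.14 and 8.44 CPM on 10% fat (log2 fold change 1.97 ± 0.51, edgeR adjusted p = 0.0281). Within each diet the libraries were close together, and high-fat male 3 did not stand out. Ifi44 had 20.1, 17.1 and 26.4 CPM on 44% fat and 5.497, 8.21 and 5.98 CPM on 10% fat (log2 fold change 1.83 ± 0.50, edgeR adjusted p = 0.0346), and Oas1a, a sensor of double-stranded RNA that shares most of its sequence with neighbouring copies and is uncertain, 18.03, 19.4 and 29.96 CPM on 44% fat and 4.92, 5.04 and 7.96 CPM on 10% fat (log2 fold change 1.65 ± 0.46, edgeR adjusted p = 0.0359). The count was 1 without high-fat male 3, without the number range term 23, and over 45 samples 27, and it ran from 0 to 23 over the 13 other libraries left out.

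The factor binds the interferon-stimulated response element, whose core repeats GAAA with a gap of 2 letters (GAAANNGAAA). This string was searched on both strands in RefSeq promoters (GRCm38.p6, 250 bases before to 50 after a start), overlapping matches counted separately. It occurred in 12 of the 22 interferon genes that have a promoter in the table (54.5%), against 1079 of 27025 genes (3.99%) overall. The list is made of known interferon genes, so this share describes the list and not the diet. Among tested genes 3.81% held it, among those called higher 4.8% and among those called lower 2.28%. Of the called interferon genes with a promoter 3 of 5 held it: Isg15, Oas1a and Ddx58, an RNA helicase. The promoters of Isg15 (chr4:156200769-156201068, minus strand) and Oas1a (chr5:120907476-120907775, minus strand) are printed 5′ to 3′ to show the element close to the start, with its letters in capitals.
Isg15: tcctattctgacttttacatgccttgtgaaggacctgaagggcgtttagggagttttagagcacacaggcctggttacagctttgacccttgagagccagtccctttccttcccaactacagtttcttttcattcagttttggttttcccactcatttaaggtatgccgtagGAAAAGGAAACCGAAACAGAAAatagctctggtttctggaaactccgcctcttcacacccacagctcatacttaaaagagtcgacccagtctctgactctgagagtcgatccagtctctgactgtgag
Oas1a: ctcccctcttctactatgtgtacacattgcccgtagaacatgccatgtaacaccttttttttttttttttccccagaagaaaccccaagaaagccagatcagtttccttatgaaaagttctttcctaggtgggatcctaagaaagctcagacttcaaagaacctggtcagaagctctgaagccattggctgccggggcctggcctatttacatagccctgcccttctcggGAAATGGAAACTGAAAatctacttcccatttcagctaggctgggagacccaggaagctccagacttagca
Isg15 held 3 overlapping matches, the first beginning at -78 from the start, and Oas1a held 2, the first at -20. A match describes these letters and not a binding event.

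Some secreted immune signals and most complement genes rose. Of 32 chemokines and cytokines 10 rose and 0 fell (median 1.62). Ccl9, which attracts myeloid cells, had 3.002, 6.43 and 8.73 CPM on 44% fat and 0.546, 1.08 and 2.12 CPM on 10% fat (log2 fold change 2.61 ± 0.54, edgeR adjusted p = 0.0129). Cxcl16, which attracts T cells, had 27.5, 24.1 and 46.3 CPM on 44% fat and 6.98, 9.18 and 13.1 CPM on 10% fat (log2 fold change 1.99 ± 0.39, edgeR adjusted p = 0.0114). The transforming growth factors Tgfb2 and Tgfb3 rose by 1.32 ± 0.29 and 1.99 ± 0.39 (edgeR adjusted p = 0.0153 and 0.0113). The groups of Tgfb2 overlapped, since high-fat male 2 lay below control male 2. Of 15 complement genes 11 rose and 0 fell (median 2.29). C4b had 391.9, 308 and 609 CPM on 44% fat and 59.3, 108 and 173 CPM on 10% fat (log2 fold change 2.45 ± 0.46, edgeR adjusted p = 0.0101), C7, part of the membrane attack complex, 51.4, 43.3 and 58.1 CPM on 44% fat and 3.54, 19.3 and 24.1 CPM on 10% fat (log2 fold change 3.11 ± 0.63, edgeR adjusted p = 0.012), and the receptor C3ar1 12.3, 15.1 and 18.2 CPM on 44% fat and 1.902, 3.38 and 4.79 CPM on 10% fat (log2 fold change 2.29 ± 0.42, edgeR adjusted p = 0.00956). Control male 1 was the lowest library for each of these 3 genes. Over the 13 other libraries left out 8 to 14 complement genes and 6 to 14 chemokines and cytokines rose.

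Stromal genes rose. Of 20 stellate and fibroblast markers 18 rose and 0 fell (median 2.40). Lum, the collagen-binding proteoglycan lumican, had 39.9, 44.05 and 77.99 CPM on 44% fat and 5.89, 12.5 and 21.2 CPM on 10% fat. It was 7.54-fold higher in the fit (log2 fold change 2.91 ± 0.43, edgeR adjusted p = 0.00863). Col1a1 (chr11:94936224-94953042), the main chain of fibrillar collagen, had 412, 293 and 764 CPM on 44% fat and 35.4, 94.1 and 269 CPM on 10% fat (log2 fold change 3.17 ± 0.66, edgeR adjusted p = 0.0129), and high-fat male 2 lay close to control male 3. Fbln1, fibulin 1, had 30.8, 30.02 and 51.4 CPM on 44% fat and 2.56, 8.87 and 15.3 CPM on 10% fat (log2 fold change 3.29 ± 0.52, edgeR adjusted p = 0.00863), and Mfap4, a microfibril protein, 21.5, 18.1 and 32.1 CPM on 44% fat and 1.28, 4.13 and 8.78 CPM on 10% fat (log2 fold change 3.93 ± 0.55, edgeR adjusted p = 0.00863). Mfap4 was among the 12 genes with the largest rise under the naming rule. Its log2 fold change in the females of the strain was -0.61 ± 0.39. Enzymes that cut and guard the matrix rose in 9 of 17 cases (median 2.23), with Mmp14, a membrane collagenase activator, at 46.4, 43.1 and 91.6 CPM on 44% fat and 8.24, 14.8 and 28.1 CPM on 10% fat (log2 fold change 2.34 ± 0.48, edgeR adjusted p = 0.0125) and Timp2, its partner inhibitor, at 96.7, 108 and 146 CPM on 44% fat and 30.02, 53.1 and 63.97 CPM on 10% fat (log2 fold change 1.69 ± 0.22, edgeR adjusted p = 0.00829). With 1 of the 13 other libraries left out 17 to 20 stromal and 5 to 13 matrix protease genes rose. With the acinar score within the strain the medians were 1.96 and 1.40.

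Nerve sheath, duct and some endothelial markers rose. Of 10 Schwann cell markers 9 rose and 0 fell (median 1.79). Sox10, the factor that defines these glia, had 5.598, 4.95 and 6.39 CPM on 44% fat and 1.44, 2.97 and 4.26 CPM on 10% fat (log2 fold change 1.93 ± 0.32, edgeR adjusted p = 0.00863), and Cdh19 8.78, 8.79 and 13.9 CPM on 44% fat and 2.28, 4.58 and 5.08 CPM on 10% fat (log2 fold change 2.02 ± 0.35, edgeR adjusted p = 0.00885). In the females the median of the list was -0.31. Of 16 duct markers 12 rose and 0 fell (median 1.52). Krt19, the keratin of duct epithelium, had 20.2, 19.8 and 61.2 CPM on 44% fat and 3.85, 7.88 and 13.99 CPM on 10% fat (log2 fold change 2.7 ± 0.58, edgeR adjusted p = 0.0152), and high-fat male 3 was the highest library. Onecut2, a duct and progenitor factor, had 7.67, 5.32 and 9.81 CPM on 44% fat and 1.36, 3.37 and 2.27 CPM on 10% fat (log2 fold change 2.56 ± 0.38, edgeR adjusted p = 0.00863), and Spp1, osteopontin, made by duct cells and macrophages, 741, 606 and 1209.98 CPM on 44% fat and 130.05, 222 and 293 CPM on 10% fat (log2 fold change 2.68 ± 0.57, edgeR adjusted p = 0.0139). Of 14 endothelial markers 5 rose and 0 fell (median 0.58). Pecam1, the adhesion molecule of all endothelium, had 153, 153 and 211 CPM on 44% fat and 96.9, 104 and 138 CPM on 10% fat (log2 fold change 0.82 ± 0.21, edgeR adjusted p = 0.0259), and Vwf, von Willebrand factor of larger vessels, 91.1, 84.1 and 137 CPM on 44% fat and 8.37, 33.5 and 47.7 CPM on 10% fat (log2 fold change 3.05 ± 0.67, edgeR adjusted p = 0.0155). Over the 13 other libraries left out 5 to 9 Schwann cell and 3 to 7 endothelial markers rose.

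Most single acinar genes did not pass the test. Of the 34 members, 31 had ranges that did not overlap, and 6 passed the test (median 2.08). Cela1, an elastase, had 5674, 9715 and 8600.5 CPM on 44% fat and 4382, 3600.4 and 4123 CPM on 10% fat (log2 fold change 1.63 ± 0.81, edgeR adjusted p = 0.192), and Ptf1a, the factor that drives acinar genes, 4.601, 6.76 and 7.12 CPM on 44% fat and 2.93, 1.85 and 3.803 CPM on 10% fat (log2 fold change 1.81 ± 0.78, edgeR adjusted p = 0.138). Neither passed, although the groups of Cela1 and Ptf1a did not overlap. Spink1, the inhibitor that guards against early trypsin, rose, with 296, 541 and 833 CPM on 44% fat and 58.7, 56.4 and 121 CPM on 10% fat (log2 fold change 3.92 ± 0.83, edgeR adjusted p = 0.0143). A cluster of trypsinogen genes had the largest rises of all named genes. Prss1 had 1591, 2469 and 5418 CPM on 44% fat and 4.02, 11.3 and 345 CPM on 10% fat (log2 fold change 8.32 ± 2.02, edgeR adjusted p = 0.0215), and Gm5771 2650.5, 4170.2 and 8610.3 CPM on 44% fat and 20.8, 32.4 and 611 CPM on 10% fat (log2 fold change 8.5 ± 1.79, edgeR adjusted p = 0.0136). Control males 1 and 2 were far below control male 3 in both genes, and all high-fat males were higher still. Prss1, Gm5771, Gm10334, Gm2663, 1810009J06Rik, Prss3, Try4 and Try5 have 50% or more of their 31-base words in another gene too and are uncertain. Left out 1 at a time, the 13 other libraries gave 3 to 27 called acinar genes, and the median was -0.38 with the acinar score, which is made from this list. In the Reg family, secreted proteins of stressed exocrine tissue, 0 of 6 genes passed (median 1.73), and 0 had ranges that did not overlap. Without the number range term the Reg median was 0.36. Within the pair of high-fat male 1 and control male 1 it was -1.57. The Reg median was -0.19 over 45 samples, -3.29 with the acinar score within the strain, and -2.18 with the score over 45 samples, where 4 were lower. Reg1 had 1178, 2146 and 2806 CPM on 44% fat and 998, 946 and 1311 CPM on 10% fat (log2 fold change 1.65 ± 0.74, edgeR adjusted p = 0.15).

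Few cell division genes passed. Of 36 cell cycle genes 4 rose and 0 fell (median 1.04), where 8.75% of all tested genes were higher. The ranges of 30 did not overlap, all higher on 44% fat, against 21.1% of all tested genes. Mki67, the standard marker of dividing cells, had 30.8, 36.5 and 57.3 CPM on 44% fat and 16.4, 10.5 and 23.5 CPM on 10% fat and did not pass (log2 fold change 0.97 ± 0.53, edgeR adjusted p = 0.237). The genes that passed were the spindle motor Kif11 and the helicase subunits Mcm3, Mcm6 and Mcm7. Kif11 had 5.34, 6.51 and 8.77 CPM on 44% fat and 2.55, 2.05 and 3.21 CPM on 10% fat (log2 fold change 1.32 ± 0.38, edgeR adjusted p = 0.041), and Mcm6 23.5, 24.8 and 34.2 CPM on 44% fat and 13.2, 12.02 and 16.3 CPM on 10% fat (log2 fold change 0.85 ± 0.22, edgeR adjusted p = 0.0288). Without high-fat male 3 the count was 1, over the 13 other libraries left out it ran from 0 to 15, without the number range term 26 and over 45 samples 27. Ccnd2, the cyclin that beta cells use to divide, fell, with 659, 698 and 428 CPM on 44% fat and 1342, 1189.9 and 914 CPM on 10% fat (log2 fold change -1.13 ± 0.27, edgeR adjusted p = 0.0196), and Cdk6, a kinase scarce in mouse beta cells, rose, with 11.2, 11.04 and 24.7 CPM on 44% fat and 3.98, 4.74 and 5.94 CPM on 10% fat (log2 fold change 2.08 ± 0.44, edgeR adjusted p = 0.0143). Igf1r, the receptor of insulin-like growth factor 1, fell by 1.17 ± 0.35 (edgeR adjusted p = 0.0426). For Igf1r control male 3, at 84.8 CPM, lay among the high-fat males.

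Stress programs showed few calls. In the unfolded protein response and ER chaperones 0 of 26 genes passed (median -0.23), and 8 fell over 45 samples, against 17.8% of all genes. With the acinar score the median was 0.18. Hspa5, the chaperone BiP, had 2997, 2466 and 2331 CPM on 44% fat and 2731, 3664 and 3935 CPM on 10% fat (log2 fold change -0.25 ± 0.44, edgeR adjusted p = 0.732). In the integrated stress response 2 of 20 genes fell and 0 rose: the amino acid transporter Slc7a5 (-0.72 ± 0.16, adjusted p = 0.0167 by edgeR) and the factor Atf5 (-1.04 ± 0.30, adjusted p = 0.0403). Of this list 1 to 4 fell with 1 of the 13 other libraries left out. Ddit3, the stress factor CHOP, had 21.7, 11.8 and 17.5 CPM on 44% fat and 21.5, 18.04 and 28.8 CPM on 10% fat (log2 fold change -0.25 ± 0.43, edgeR adjusted p = 0.727). Among 23 antioxidant genes 5 rose and 1 fell (median 0.05). Gpx8 and Prdx4, peroxidases of the secretory pathway, rose by 1.62 ± 0.29 and 1.52 ± 0.35 (edgeR adjusted p = 0.00956 and 0.0178), and Nqo1, a quinone reductase, fell, with 1.83, 2.71 and 2.28 CPM on 44% fat and 9.04, 7.56 and 3.64 CPM on 10% fat (log2 fold change -1.99 ± 0.47, edgeR adjusted p = 0.0195). Between 3 and 6 antioxidant genes rose over the 13 other left-out libraries. The immediate early genes, which respond within minutes to handling of tissue, had 0 of 15 called (median -0.20), though their summed level was 651 to 2585 CPM on 44% fat and 3548 to 6148 CPM on 10% fat. Without the number range term 0 were called as well, with a median of -0.95, and in the 6 males alone 1 was lower. The median turned to 0.47 without control male 1. Of 15 clock genes 1 rose and 2 fell, among them Clock (-0.72 ± 0.17, adjusted p = 0.0193, edgeR), and 0 to 3 fell with 1 of the 13 other libraries left out. The clock median was -0.47, and 0.08 without control male 1.

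**Figure D5:**
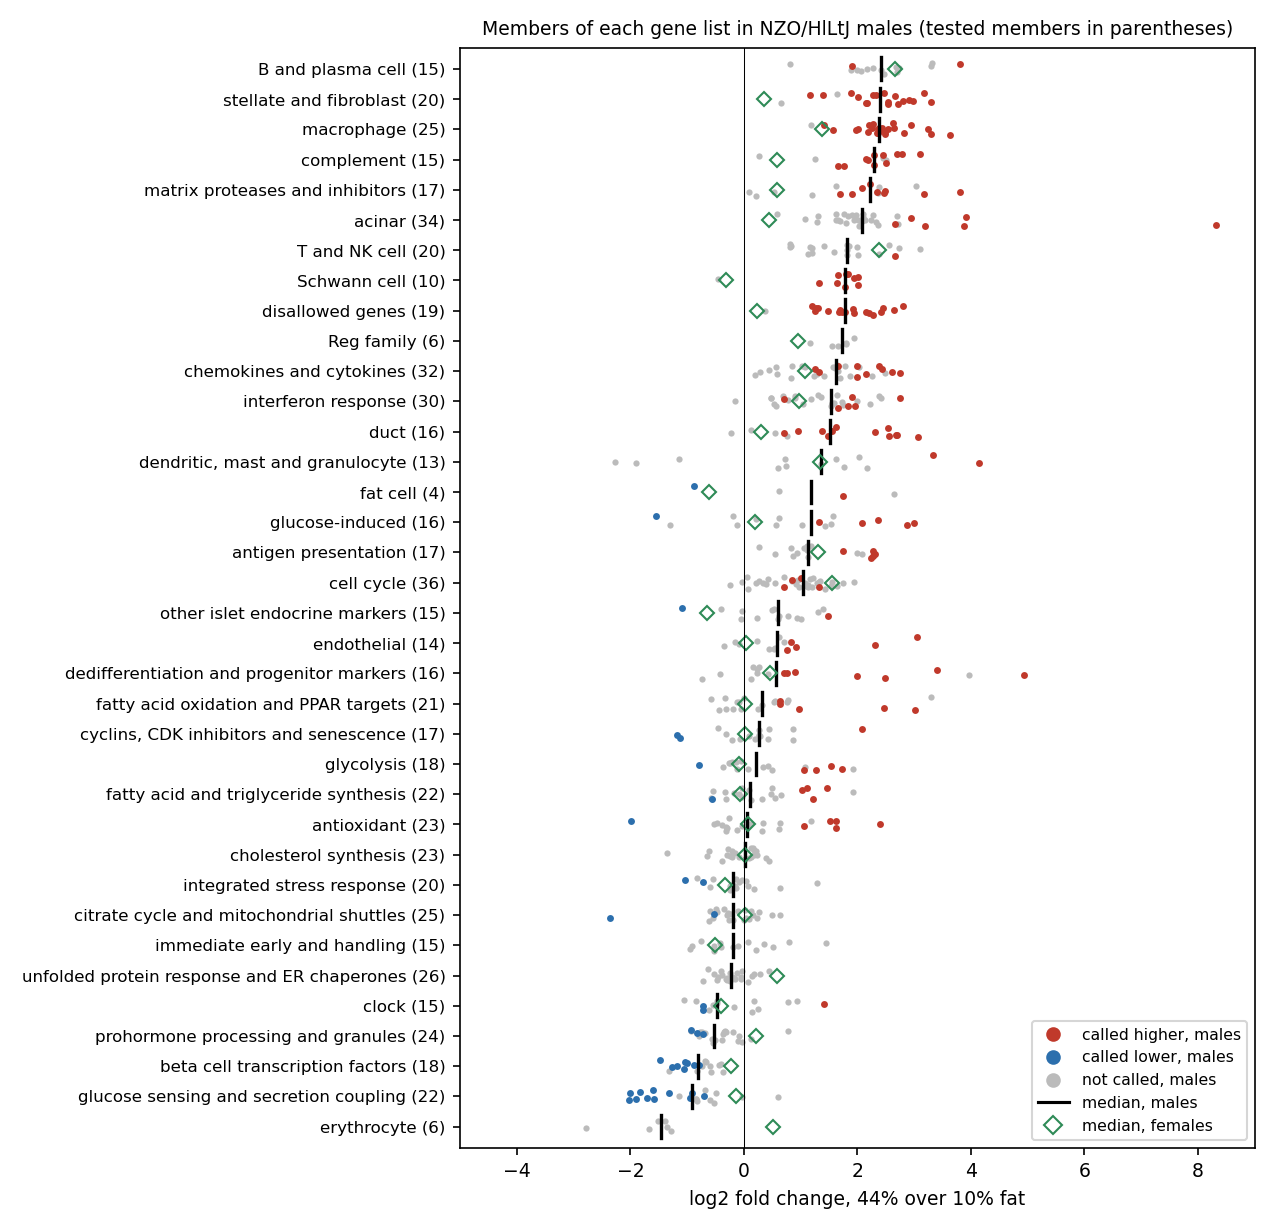
Log2 fold change of 44% over 10% fat (horizontal) for each tested member of the gene lists (vertical, number of tested members in parentheses), red and blue for members called in males, with black bars for the male and green diamonds for the female median. The male medians run from 2.41 in B and plasma cell markers to -1.46 in erythrocyte genes, and 24 of 25 macrophage markers are red.

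Beyond the lists, the 12 genes with the largest falls under the naming rule included a transmitter enzyme. Gad1 (chr2:70553072-70602014), the enzyme that makes the transmitter GABA, had 4.94, 6.66 and 3.63 CPM on 44% fat and 32.8, 18.03 and 13.2 CPM on 10% fat. It was 6.35-fold lower in the fit (log2 fold change -2.67 ± 0.41, edgeR adjusted p = 0.00863). Mreg, melanoregulin, had 4.404, 5.505 and 3.11 CPM on 44% fat and 27.5, 20.3 and 7.897 CPM on 10% fat (log2 fold change -2.56 ± 0.54, edgeR adjusted p = 0.0135), and Angptl7, an angiopoietin-like secreted protein, 25.6, 34.7 and 15.8 CPM on 44% fat and 104, 107 and 58.7 CPM on 10% fat (log2 fold change -2.28 ± 0.47, edgeR adjusted p = 0.0126). Their groups did not overlap, which the naming rule required. High-fat male 3 was the lowest library in all 3. Cntnap2, a neuronal adhesion protein, Ica1l, a relative of islet autoantigen ICA69, and Tmem215 had log2 fold changes of -1.99 ± 0.38, -2.06 ± 0.38 and -1.94 ± 0.37 (edgeR adjusted p = 0.0102, 0.00967 and 0.0102). Defb1, a defensin, fell from 22.6, 21.5 and 9.101 to 3.81, 7 and 2.36 CPM (-2.22 ± 0.63, adjusted p = 0.0375 by edgeR). Within the 900 lower genes high-fat male 3 was the lowest high-fat library in 691 (76.8%) and control male 3 the lowest control in 811 (90.1%). Over all tested genes each of these shares was 39.4%. Among the 1620 higher genes high-fat male 3 was the highest in 1460 (90.1%), and control male 1 the lowest control in 1426 (88.0%), against 40.6% and 39.4% over all tested genes. Control male 3 was the highest control in 1425 (88.0%) of the higher genes, against 41.9% over all tested genes. The acinar share ranks high-fat male 3 first of the high-fat males and control male 3 first of the controls. Its lowest control was control male 2 (5.45%) and not control male 1 (5.94%). The part of the acinar share in these orders was not tested. The genes were called from these same libraries, with control male 1 at a weight of 0.6 in size, so the orders are not separate support.

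The females of the strain received the same diets and stand in the same fit. There 3 genes passed for diet (2861 at an unadjusted p under 0.05). The test of whether the diet difference of males differs from that of females called 2 genes (0.0108%, with 2198 at an unadjusted p under 0.05), so list medians are given side by side and no list is called particular to males. Glucose sensing genes had medians of -0.92 in males and -0.14 in females, beta cell transcription factors -0.81 and -0.23, and disallowed genes 1.78 and 0.24. Stellate and fibroblast markers had 2.40 and 0.35, and Schwann cell markers 1.79 and -0.31. Cell cycle genes stood at 1.04 and 1.55, T and NK cell markers at 1.81 and 2.38, B and plasma cell markers at 2.41 and 2.67, and antigen presentation at 1.13 and 1.31. In Slc2a2 the female log2 fold change was -0.35 ± 0.37, in Gipr -0.32 ± 0.33, in Cat 0.46 ± 0.27 and in Csf1r 1.12 ± 0.33. The acinar share of the females was 7.87% ± 2.80 (SD, n = 4) on 44% fat and 4.94% ± 3.97 (n = 4) on 10% fat.

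The interaction's 2 genes were Slc5a7, the choline transporter of cholinergic nerves, and Cplx1, complexin 1, a regulator of vesicle release. Slc5a7 had 1.48, 2.06 and 1.73 CPM on 44% fat and 0.131, 1.78 and 1.79 CPM on 10% fat, and Cplx1 1.21, 1.03 and 1.23 CPM on 44% fat and 0.142, 1.05 and 1.42 CPM on 10% fat. Only control male 1 stood low, and the other 5 males overlapped. The male minus female difference in log2 fold change was 6.35 for Slc5a7 and 5.43 for Cplx1. The interaction called 0 genes without control male 1. It also called 0 without control male 2, high-fat males 1 or 2, control females 1 or 4, or high-fat females 2 or 4. Leaving out each of the 14 libraries gave 0 to 58 calls, the number range left out gave 52, and DESeq2 gave 496. Chat and Chrna7 are further cholinergic genes picked after their values were seen. Chat had 0.197, 0.159 and 0.15 CPM on 44% fat and 0.0219, 0.144 and 0.254 CPM on 10% fat, and Chrna7 had 0.942, 0.834 and 1.35 CPM on 44% fat and 0.383, 0.731 and 0.963 CPM on 10% fat.

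The males of the other strains received the same diets. In a fit of all 45 samples the diet difference of NZO/HlLtJ males differed from that of C57BL/6J males in 3055 of 20306 genes (15%: 6.74% in the higher and 8.3% in the lower direction), and from that of CAST/EiJ males in 3982 (19.6%: 9.55% and 10.1%). Without the number range term 2063 genes (1046 higher, 1017 lower) were called against C57BL/6J and 2838 (1605 higher, 1233 lower) against CAST/EiJ, where the counts with it were 1369 higher and 1686 lower, and 1939 higher and 2043 lower. Both tests use the same NZO/HlLtJ samples and are not independent. Neither was run without control male 1 or with the acinar score, the settings that left 0 male diet calls within the strain. Apart from Slc2a2 and Mki67, which were in the fixed set, the genes named here were picked by their male diet difference. That difference is part of both tests. For Slc2a2 the difference of differences was -1.83 ± 0.33 (adjusted p = 0.000512) against C57BL/6J and -1.92 ± 0.34 (adjusted p = 0.000293) against CAST/EiJ on the log2 scale, and for Gipr -1.96 ± 0.30 (adjusted p = 0.000112) and -1.75 ± 0.31 (adjusted p = 0.000293). Pfkfb3 had 2.04 ± 0.31 (adjusted p = 8.57e-05) and 2.38 ± 0.32 (adjusted p = 1.54e-05), Pcx -1.91 ± 0.30 (adjusted p = 0.000131) and -1.93 ± 0.31 (adjusted p = 0.000121), and Gad1 -2.44 ± 0.35 (adjusted p = 4.68e-05) and -2.54 ± 0.36 (adjusted p = 3.61e-05). Glucose sensing genes were lower in the interaction in 16 of 22 cases against C57BL/6J and 15 against CAST/EiJ, and macrophage markers higher in 17 and 23 of 25. Disallowed genes were higher in 13 and 14 of 19. Cell cycle genes were higher in 3 of 36 against C57BL/6J and in 24 against CAST/EiJ, where Mki67 had -0.13 ± 0.44 (adjusted p = 0.889) and 1.55 ± 0.45 (adjusted p = 0.0137). Of 34 acinar genes 0 passed against C57BL/6J and 0 against CAST/EiJ. Acinar shares in C57BL/6J males were 7.28% ± 7.10 (SD, n = 4) on 44% fat and 6.44% ± 3.53 (n = 4) on 10% fat, and in CAST/EiJ males 8.10% ± 10.8 (n = 4) and 2.68% ± 2.58 (n = 3).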

How the data were processed

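PolyA RNA of isolated islets was sequenced in pairs of 150 bases, per the labels' protocols, and RNA spike-ins were added but are not analysed here. The authors deposited expected counts per gene (22904 genes, with 80.6% of values within 1e-06 of a whole number), which were rounded to whole numbers. The submitters' processing notes name GRCm38 and DESeq2. The aligner, the counter and strand use were not given in the sources used here. A deposited matrix of transformed log2 values was not used. Genes were tested with edgeR 4.0.16 in R 4.3.3 (quasi-likelihood test) over the 14 NZO/HlLtJ samples, with terms for the 4 groups of sex and diet and for the 3 number ranges, trimmed mean of M values scaling, filterByExpr at a minimum count of 10, and Benjamini-Hochberg adjustment over all tested genes at 0.05, leaving 8 residual degrees of freedom. Whole series fits used all 45 samples. Depth was 57203768 to 109950216 counts per library, and for shares of counts the spread between libraries is given. Shares of libraries were compared with exact permutation tests, two-sided.

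Named genes were the protein-coding genes with the largest change among those called (12 in each direction, mean log2 CPM 3 or more in males, groups without overlap), the up to 4 members of each list with the smallest p, a fixed set of islet and marker genes, and the 6 higher and 6 lower genes of the sex interaction with the smallest p. Slc5a7, Cplx1, Chat and Chrna7 were added after their values were seen. The comparison and the gene lists were chosen with earlier results of these data known. Genes with 50% or more of their 31-base words in other genes are called uncertain (11 of 201 named genes). Alternatives were DESeq2 1.42.0, its size factors, no filter, no number range, acinar genes left out, the acinar score as a covariate, males alone, and each library left out. The fits of all 45 samples were added after seeing the data. A few genes are not reported here.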

Additional observations from a re-analysis of the deposited data

Results flagged for a closer look

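The sex by diet interaction within NZO/HlLtJ singled out Slc5a7, at 6.35, and Cplx1, at 5.43, as male minus female differences in log2 fold change that passed the edgeR quasi-likelihood test. Among the males only control male 1 stood low in both genes. The interaction called 0 genes without that library, and also without several others. The diet difference of NZO/HlLtJ males differed from that of C57BL/6J males in 3055 genes and from that of CAST/EiJ males in 3982 genes of the 20306 tested by edgeR in all 45 samples. Without the number range term the counts were 2063 and 2838.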

How the results depend on the processing

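For the diet difference in males, 2520 genes were called. The count was 3988 with DESeq2, 4759 without the number range and 2499 in the 6 males alone. It was 0 with the acinar score, 0 with the score and no number range, 6866 over 45 samples and 6130 with the score added there. Leaving out 1 library gave 0 to 3837 calls. With 1 male left out and no number range it gave 1583 to 5851 (4567 and 4397 without high-fat males 1 and 2), and over 45 samples 4106 to 7243 (6703 and 6770 without high-fat males 1 and 2, 5984 and 5000 without control males 1 and 2). The sex by diet interaction called 2 genes, 496 with DESeq2, 52 without the number range and 0 to 58 with 1 library left out. Called members of the gene lists numbered 207, and 354 without the number range, 0 with the acinar score, 388 over 45 samples, 361 with the score there and 0 to 273 with 1 library left out. Of the named genes 141 passed, 0 with the acinar score and 0 to 155 with 1 library left out. Medians of lists changed sign as follows. With the acinar score within the strain they did in the acinar list (-0.38), the Reg family (-3.29), fatty acid oxidation (-0.0271) and the unfolded protein response (0.18). Over 45 samples the Reg median was -0.19, and with the score there the acinar median was -0.24, the Reg median -2.18, Cela1 at -0.59 and Reg1 at -0.65. Without control male 1 the immediate early median was 0.47, the erythrocyte median 0.14 and that of the 3 sex-linked genes 0.47 (2.66 without high-fat male 1), and the clock median ran from -0.548 (without high-fat male 3) to 0.0783 (without control male 1). Without control female 2 the Reg median was -0.29, and without control female 3 the immediate early median 0.07. The cholesterol synthesis median, 0.02, fell below 0 in several settings, to -0.20 over 45 samples with the score. The cause of these changes was not tested. No paired analysis was possible because the labels give the samples no replicate numbers. Depth was similar among the males, and 3 samples per diet allow no exact p below 0.1.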
